A study of Mus musculus with 4 samples.

Results

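Elavl binding sites were examined in the transcripts of 33 mouse adhesion genes, namely 21 cadherins (Cdh genes) and 12 protocadherins that lie outside the clustered Pcdh locus. The genes were chosen by name, and every deposited HITS-CLIP peak that touched one of their GRCm38 spans was counted, with genes that held no peak kept in the set. All 33 symbols were found among the 21900 coding genes of the reference. Together the spans held 1337 of the 97775 peaks of the cortex list and 2 of the 7335 peaks of the N2A list. In HITS-CLIP, ultraviolet light fixes a protein onto its bound RNA, the protein is purified, and the short RNA pieces left on it by partial RNase digestion are sequenced. The labels give 3 cortex samples from mouse brain, whose shared list has a name that carries the words for 2 months, and 1 sample of N2A cells, a mouse neuroblastoma line. The sources used here do not state strain, sex, age or antibody. The 5′ linker was 25 nt long for cortex and 7 nt for N2A, so linker design and cell source cannot be told apart.

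Cadherins are membrane proteins whose extracellular repeats, held rigid by calcium, bind the same or a related cadherin on a neighbouring cell. Classical cadherins of type I and type II hold catenins at their cytoplasmic tail, which link them to actin and steady cell junctions and synapses. The non-clustered protocadherins adhere more weakly, fall into the delta-1 and delta-2 families by their repeats and tail motifs, and act in neuronal sorting, axon growth and synapse formation. Elavl proteins (Elavl1, or HuR, in most cells, and Elavl2, Elavl3 and Elavl4 mainly in neurons) bind U-rich RNA in introns and in untranslated regions near the transcript end, and are known for effects on splicing, stability and translation.

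Each list gives the peaks of its whole group, 50 to 51 nt wide, with the p-value that the authors' caller gave each peak. Read counts are not listed, so sequencing depth is unknown. There is also no value for a single sample, and hence no replicate spread to set a difference against. Differences between genes and between lists are given as counts without a test. A lower p marks a stronger peak within its list, and p-values were not compared between lists. Markers of cell types were counted as a description only, because the lists were chosen with earlier results of these data known. Cortex peaks were found in 4 of 4 neuron markers, 3 of 4 astrocyte markers, 4 of 4 oligodendrocyte markers, 1 of 4 endothelial markers and 1 of 4 microglia markers. All 8 peaks in that microglia marker, P2ry12, lay on the strand opposite to the gene, and its strongest also touched the span of Med12l, so 0 of 4 microglia markers had a peak on their own strand. N2A peaks were found in 4 of 4 sympathoadrenal markers, 3 of 4 neuron markers and none of the 16 genes marking the other cell types. In cortex, 1 of 4 sympathoadrenal markers, Mycn, held a peak. Of all coding genes 40.8% had a cortex peak and 14.5% an N2A peak, and of those under 50 kb 31.7% and 11.4%. Expression was not measured, so a gene without a peak may be unbound or not transcribed, and fewer cells of a type cannot be told apart from less bound RNA per cell.

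In cortex, 25 of the 33 genes (75.8%) held at least 1 peak, beside 40.8% of all coding genes. These adhesion genes are long, with a median span of 128.6 kb against 17.1 kb for all coding genes, and long genes more often held peaks. Among genes over 500 kb, 6 of 6 members had a cortex peak, beside 91.6% of coding genes of that length. For spans of 200 to 500 kb the counts were 5 of 6 members beside 81.9%, for 50 to 200 kb 10 of 12 beside 69.1%, and for shorter genes 4 of 9 beside 31.7%. Within each length class the members' share was near or somewhat above that of coding genes, and 33 genes are too few to read more from it. The median number of peaks in the 25 genes with peaks was 15, against 4 in all coding genes with a cortex peak. Those medians are not matched for span. With genes lacking a peak counted as 0, the median over 500 kb was 80 in members and 52 in coding genes. From 200 to 500 kb the medians were 26.5 and 13, from 50 to 200 kb 9.5 and 4, and for shorter genes 0 and 0.

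**Figure D1:**
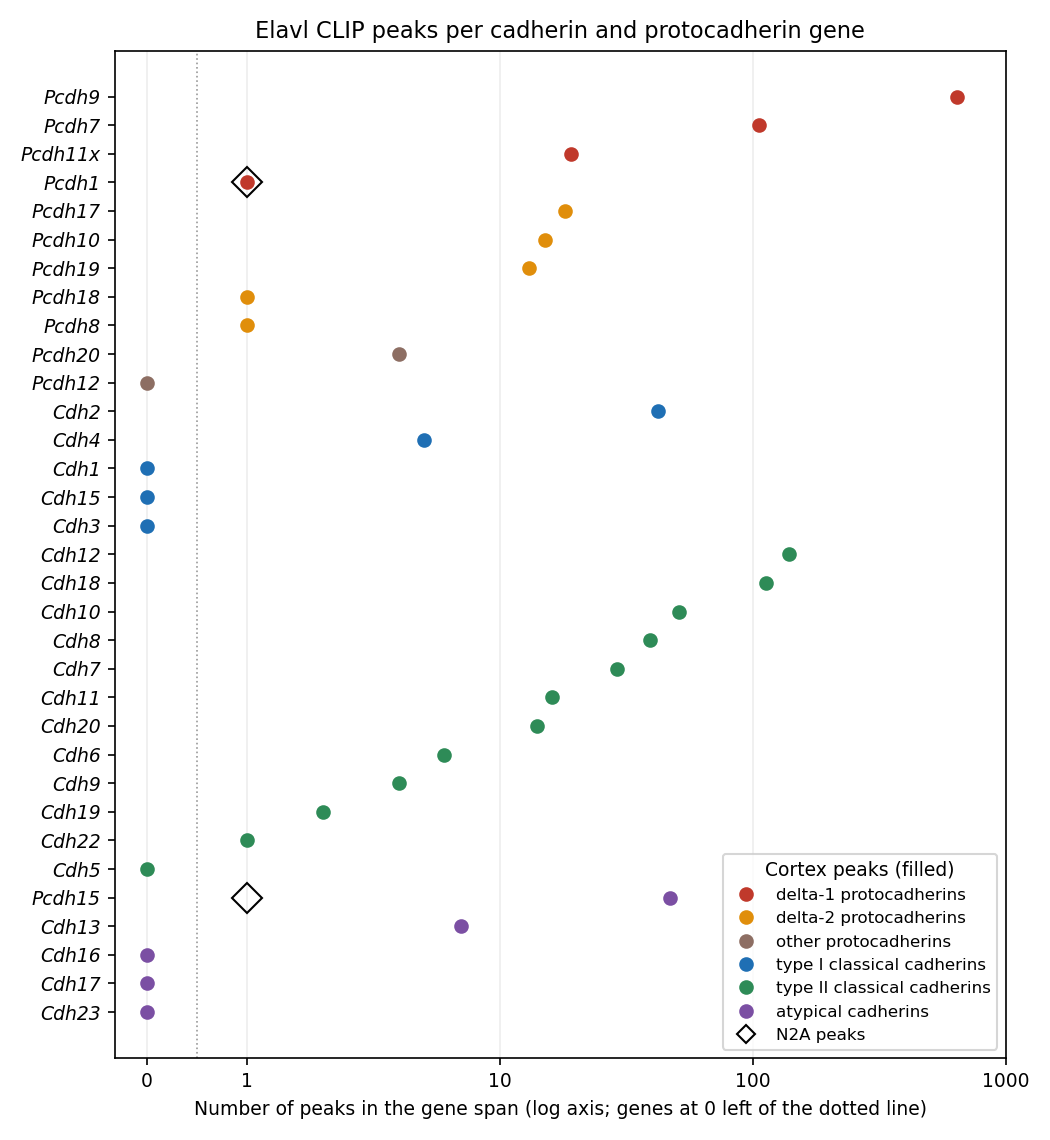
Number of Elavl peaks in the span of each of the 33 genes, ordered by family (log axis, genes at 0 drawn left of the dotted line). Filled points are cortex peaks and open diamonds N2A peaks. Pcdh9 lies far to the right with 644 cortex peaks, 8 genes lie at 0, and only Pcdh1 and Pcdh15 carry an N2A peak.

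The peaks were concentrated in a few genes. Pcdh9, a delta-1 protocadherin of cortical neurons, held 644 cortex peaks, 48.2% of all peaks of the set. It ranked 2 by number of peaks among the 227 coding genes over 500 kb, and 3 by peaks per 100 kb of span (73.3 per 100 kb). Next came the type II cadherins Cdh12 with 139 and Cdh18 with 113, and the delta-1 protocadherin Pcdh7 with 106. Those 4 genes held 1002 peaks, 74.9% of the set. Cdh10 (51), Pcdh15 (47), Cdh2 (42) and Cdh8 (39) followed, and the 8 genes together held 88.3%. At the other extreme, 10 of the genes with peaks held between 1 and 7.

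Span length did not fix the number. Across the 25 genes with peaks, the number of peaks and the span had a Spearman correlation of 0.72, beside 0.59 across the 8939 coding genes with a cortex peak. This is a description across genes of 1 list, which are not independent replicates. Cdh13, encoding T-cadherin, which is tethered to the membrane by a lipid anchor and lacks a catenin-binding tail, spans 1185 kb and held 7 peaks (0.591 per 100 kb). Pcdh15 spans 1554 kb and held 47 (3.03 per 100 kb). Cdh4, encoding R-cadherin, spans 457.0 kb and held 5 (1.09 per 100 kb). Over all coding genes above 500 kb with a peak, the median was 8.30 per 100 kb, so Cdh13 and Pcdh15 lay below that median and Pcdh9 far above it. At the short end, Pcdh20, a 6.65 kb gene, held 4 peaks.

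**Figure D2:**
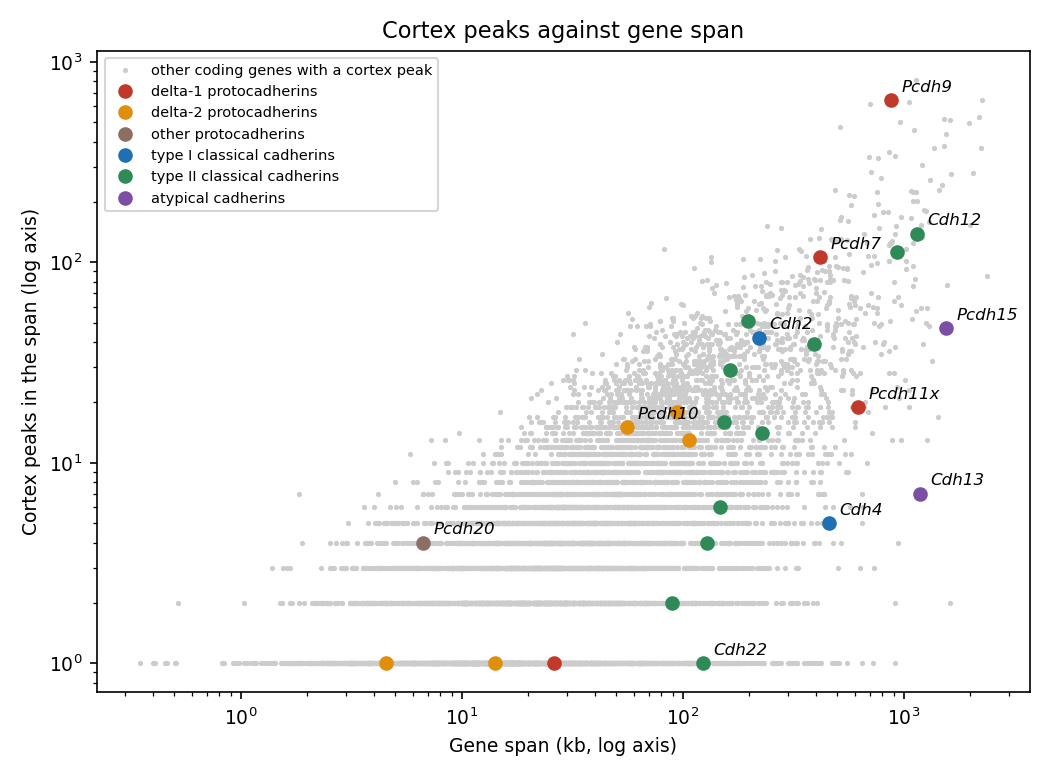
Cortex peaks in each gene against the length of its span, both on log axes, with other coding genes that held a peak in grey and the 25 genes coloured by family. Pcdh9 (644 peaks in 879.1 kb) lies at the upper edge of the cloud, whereas Cdh13 (7 in 1185 kb) and Cdh4 (5 in 457.0 kb) lie near its lower edge.

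By family, the delta-1 protocadherins had cortex peaks in 4 of 4 members and held 770 peaks, with Pcdh11x at 19 and Pcdh1 at 1 beside Pcdh9 and Pcdh7. The delta-2 protocadherins, several of which recruit actin regulators of the WAVE complex with their tails, had peaks in 5 of 5 members but only 48 in all. Pcdh17, a protocadherin of cortico-basal ganglia synapses, held 18, Pcdh10 15, and Pcdh19, whose human counterpart is mutated in a female-limited epilepsy, 13. Pcdh8 and Pcdh18 held 1 each. With so few genes, the counts of members with peaks may be read beside coding genes of like length. Pcdh1, Pcdh8 and Pcdh18 span less than 50 kb, where 31.7% of coding genes had a cortex peak. For Pcdh10, Pcdh17 and Pcdh19, at 50 to 200 kb, the share was 69.1%. It was 81.9% from 200 to 500 kb, where Pcdh7 lies, and 91.6% over 500 kb, where Pcdh9 and Pcdh11x lie. Delta-2 genes are also shorter, with a median span of 56.2 kb against 518.7 kb for delta-1, and their median density of 19.1 peaks per 100 kb was above the 14.6 of the delta-1 genes with peaks. Densities ran from 7.10 to 26.7 in delta-2 and from 3.06 to 73.3 in delta-1. Density also varied with span in coding genes with a peak. Their medians were 15.2 per 100 kb under 50 kb, 9.35 from 50 to 200 kb, 6.56 from 200 to 500 kb and 8.30 above. Pcdh9, at 73.3 per 100 kb, was the densest gene of either family.

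Type II cadherins, which mark nuclei, layers and circuits in the brain, had cortex peaks in 11 of 12 members and 414 peaks in all. After Cdh12, Cdh18, Cdh10 and Cdh8 came Cdh7 with 29, Cdh11 with 16, Cdh20 with 14, Cdh6 with 6, Cdh9 with 4, Cdh19 with 2 and Cdh22 with 1. Within this family the count thus ran from 1 to 139. Cdh5, encoding VE-cadherin of endothelial junctions, was the member with 0. Type I cadherins had peaks in 2 of 5 members. The median span was 158.2 kb in type II and 66.9 kb in type I. Of coding genes of 50 to 200 kb, 69.1% had a cortex peak. Under 50 kb the share was 31.7%, and Cdh3, Cdh5 and Cdh15 are that short. From 200 to 500 kb, where Cdh2, Cdh4, Cdh8 and Cdh20 lie, it was 81.9%. Over 500 kb, where Cdh12 and Cdh18 lie, it was 91.6%. The difference between these families was not tested. Cdh2, encoding N-cadherin, the main cadherin of neural tissue, held 42, and Cdh4 held the 5 given above.

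The 8 genes with no cortex peak were Cdh1, Cdh3, Cdh5, Cdh15, Cdh16, Cdh17, Cdh23 and Pcdh12, and none of them had an N2A peak. Lack of a peak is common, since only 40.8% of all coding genes had a cortex peak. Cdh3, Cdh5, Cdh15, Cdh16 and Pcdh12 span less than 50 kb, where the share was 31.7%. For Cdh1 and Cdh17, at 50 to 200 kb, it was 69.1%, and for Cdh23, at 200 to 500 kb, 81.9%. Whether tissue of expression bears on these 8 genes was not tested. Cdh1 and Cdh3 encode E- and P-cadherin of epithelia, Cdh15 the M-cadherin of muscle, Cdh16 and Cdh17 the cadherins of kidney and intestine, and Cdh5 and Pcdh12 are endothelial. Of the endothelial markers Cldn5, Pecam1, Kdr and Flt1, only Flt1 held cortex peaks, and it held 2. Cdh23 forms the tip links of inner-ear hair cells with Pcdh15. With a span of 393.8 kb it was the longest of the 8, the others lying between 17.3 and 66.9 kb. Its partner in those links, Pcdh15, did hold peaks, but its strongest had a p of 0.000142, and only 9 of its 47 peaks had a p under 0.01.

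Strength varied as widely as number. Of the 25 genes, 13 held a peak with a p under 1e-10, and 5 had no peak with a p under 0.001 (Cdh6, Cdh9, Cdh19, Cdh22 and Pcdh18). Cdh20, the weakest of the 13 (p of 4.14e-11), ranked 3493 by its strongest peak among the 8939 coding genes with a cortex peak (39.1%). Cdh6, the strongest of the 5, ranked 6245 (69.9%). Both counts are therefore a description only. Peaks under 1e-10 made up 12.8% of the set, beside 10.04% of the cortex list. Of these 171 peaks 133 lay in Pcdh9, and without Pcdh9 the share was 5.48%. The share of peaks with a p under 0.01 likewise was 55.9% with Pcdh9 and 44.4% without it, beside 50.3% of the list. The set's place above the list in strength therefore rested on 1 gene.

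The strongest peak in Pcdh9 lay on the minus strand at chr14:93079817-93079867 with a p of 4.51e-107, 66.1 kb before the gene end. The strongest Cdh8 peak, at chr8:99399679-99399729, had a p of 2.49e-95. It lay 17.9 kb from the gene start, and the next Cdh8 peak had a p of 6.95e-09, so 1 site stood apart from the other 38. In Pcdh7 the site with the lowest p lay at chr5:58131809-58131860 (p of 1.13e-70), 1.38 kb before the gene end. Cdh12 had its strongest peak at chr15:20894149-20894199 (p of 5.83e-54), 704.2 kb before the end, in the interior of the gene. Cdh18 had more than 100 peaks, yet its strongest, at chr15:23071314-23071365, reached a p of only 8.68e-14.

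Pcdh10 held a tight group of strong sites. Its strongest 3 peaks lay between chr3:45419803-45419853 and chr3:45420865-45420915, with p-values of 1.63e-57, 1.16e-39 and 2.64e-37, and 7 of its 15 peaks had a p under 1e-10. A noncoding gene, 1700027H10Rik, overlaps 9 of the Pcdh10 peaks, but its strand in the reference is minus and all 9 lay on the plus strand of Pcdh10. Beyond the annotated Pcdh10 end, 5 further peaks on the same strand followed within 10 kb, the strongest 651 nt past the end with a p of 2.28e-11. Pcdh19 had its strongest peak at chrX:133586981-133587032 (p of 6.47e-51), and Pcdh17 at chr14:84505238-84505288 (p of 1.89e-31). Cdh2 had p-values of 1.14e-34 at 0.294 kb before the gene end and 1.14e-29 at 139.6 kb before it, and Cdh10 one of 2.02e-31 at 79.9 kb. These sites lay both at gene ends and deep inside genes.

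**Figure D3:**
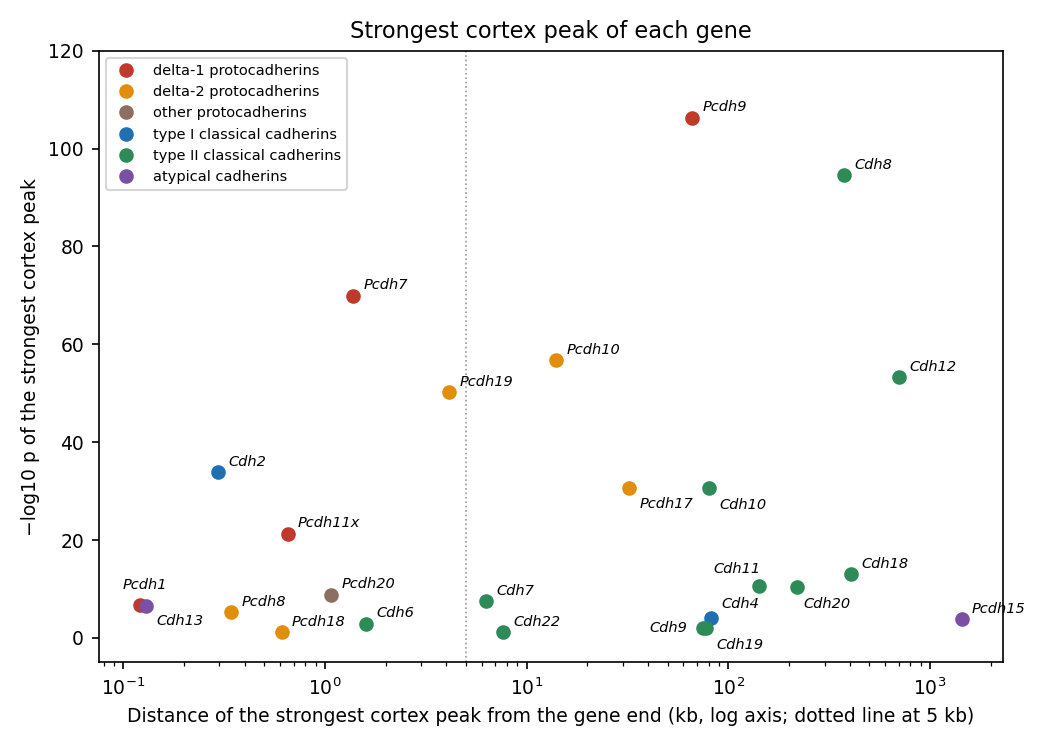
Strength of the strongest cortex peak of each of the 25 genes (−log10 of its p-value) against its distance from the gene end (log axis, dotted line at 5 kb). Pcdh7, Pcdh19 and Cdh2 have strong peaks left of the line, whereas Pcdh9, Cdh8, Cdh12 and Pcdh10 have theirs right of it.

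Position was measured from each peak to the end of the annotated span, since exons and untranslated regions were not used here. The last 5 kb held 82 of 1337 peaks (6.13%, Wilson 95% interval for counting error 4.97 to 7.55), beside 19.9% of the peaks in all coding genes. In coding genes over 100 kb the share was 8.61%, and in members of that length 5.10%. Pcdh9 weighed on this value, and without it the share was 11.3%. When each gene counted equally, the mean share was 29.3%. Although few, the peaks near gene ends were the stronger ones by median p. Their median p was 0.000308, against 0.00593 farther away, and in all coding genes the medians were 0.000408 and 0.0132. Without Pcdh9 the members' medians were 0.000430 and 0.0211. The same order thus held in the set and in coding genes at large. Peaks with a p under 1e-10 made up 17.1% of the members' peaks near the end and 12.5% of those farther away. In coding genes the contrast was wider, at 25.5% and 6.39%. Without Pcdh9 the members' shares were 15.4% and 4.23%.

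At least 1 peak lay within 5 kb of the end in 21 of the 25 genes, Cdh4, Cdh9, Cdh19 and Cdh22 being the others. The matching share over coding genes is not given here, so no more is read from that count. In 10 of 25 the strongest peak lay within 5 kb of the end (40.0%), beside 59.7% of all coding genes with peaks. Restricted to spans over 100 kb, the shares were 6 of 18 members (33.3%) and 43.7% of 1911 coding genes. Pcdh1, Pcdh8, Pcdh18 and Pcdh20 had all of their peaks in the last 5 kb, which for Pcdh8 is the whole gene and for Pcdh20 most of it. Pcdh19 had 10 of 13 there, Pcdh11x 8 of 19 and Pcdh17 7 of 18. In Pcdh7, 6 of 106 peaks lay there and all 6 had a p under 1e-10, against 2 of the 100 peaks elsewhere in that gene. Pcdh9 had only 4 of 644 peaks in its last 5 kb, but 2 of them had a p under 1e-10, the lower being 4.94e-67.

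**Figure D4:**
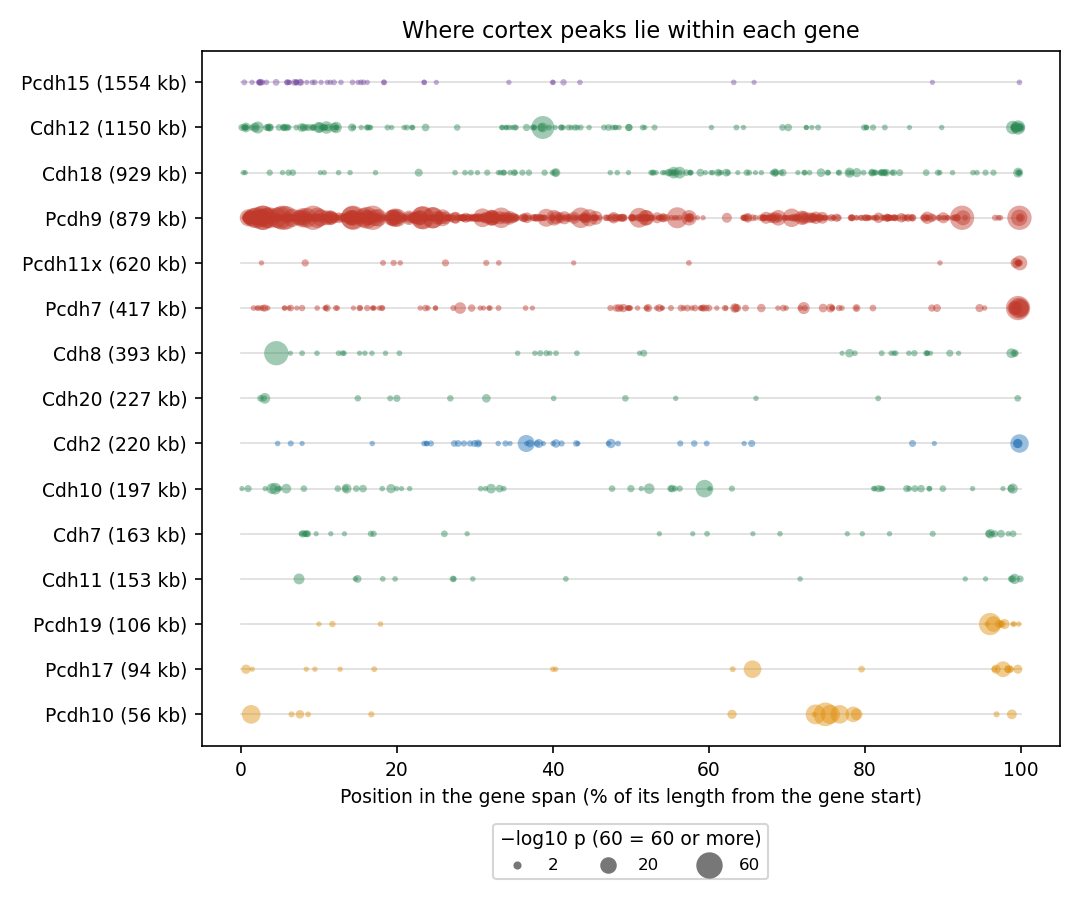
Position of every cortex peak in the 15 genes with at least 13 peaks, as a percentage of the span from the gene start, with the area of a point growing with −log10 p. Pcdh9 is covered along nearly its whole length, whereas Pcdh19 and Pcdh11x show a cluster at the end, and Cdh8 has 1 strong site near the start.

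Along the longest genes the peaks were spread in different ways. When each span was cut into 10 equal bins, Pcdh9 had 117 peaks in the first bin, 57 in the fifth and 19 in the last, with a median gap of 712 nt between neighbouring peaks and none longer than 33.8 kb. Pooled over the 208 coding genes over 500 kb with peaks, 16.0% of peaks lay in the first bin and 8.09% in the last. Pcdh15 leaned further to its start, where the first 20% of the span held 35 of 47 peaks (29.3% in the coding genes over 500 kb), and a stretch of 355.1 kb held none. Cdh18 ran the other way, with 80 of its 113 peaks past the midpoint of the span. Cdh12 had 54 of 139 peaks in the first 20% of the span and 26 in the last bin. Those 26 lay within 11.7 kb of the gene end and followed a stretch of 104.8 kb without a peak. Cdh2 held 25 of its 42 peaks in 1 window of 50 kb that began 51.8 kb from the gene start. Cdh13 had 5 peaks before its midpoint and 2 at the end, with 761.2 kb free of peaks between them.

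**Figure D5:**
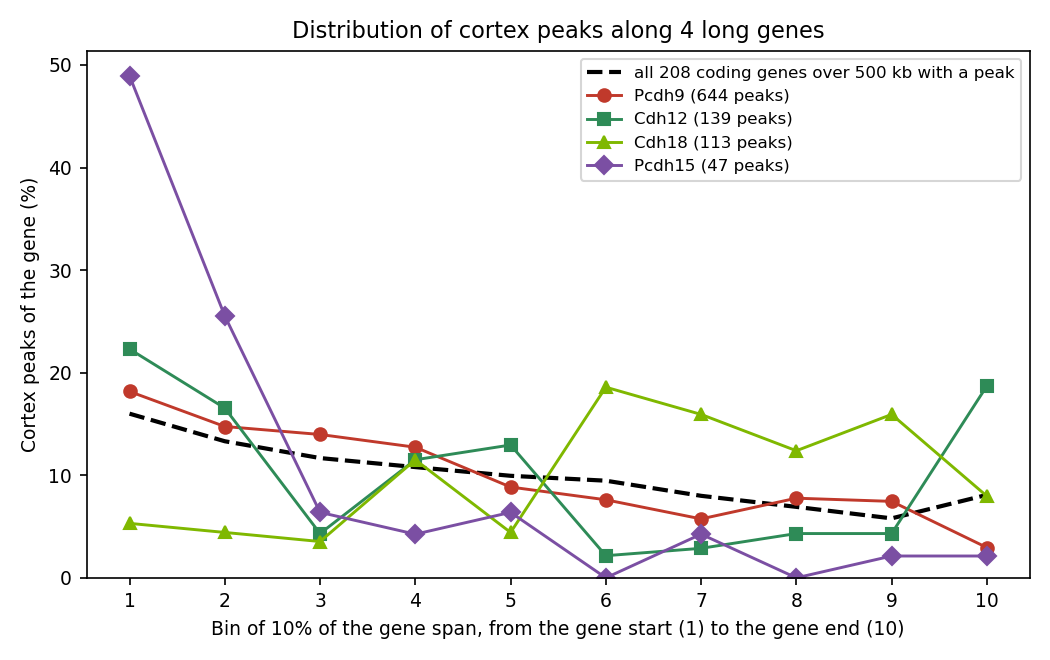
Percentage of a gene's cortex peaks in each of 10 equal bins of its span, from start to end, for Pcdh9, Cdh12, Cdh18 and Pcdh15, with the 208 coding genes over 500 kb that held peaks as a dashed line. Pcdh15 is highest in the first bin, Cdh12 at both ends, and Cdh18 in the sixth to the ninth.

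All 1337 cortex peaks lay on 1 strand of their gene. For 18 of the 25 genes the reference gives the strand, and 1245 of 1245 peaks were on it, beside 98.2% of the peak and gene pairs over 7134 coding genes. For the other 7 the strand was taken from the peaks themselves. The reference gives windows around annotated starts for 20 of the 33 genes, and 0 held a cortex peak, beside 0.417% of 17492 coding genes. With so low a share in coding genes, 0 of 20 does not set the members apart. Peaks did lie near span starts, such as 1 at 639 nt from the start of Pcdh17 (p of 5.00e-08) and 1 at 754 nt in Pcdh10 (p of 2.34e-35). Only 19 of the 1337 peaks also touched the span of another gene, 9 of them in Pcdh10 as described. In Cdh18 4 such peaks touched a pseudogene, Gm19840, and in Cdh8 3 touched the noncoding gene Gm15679, which lies on the opposite strand.

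In N2A cells, 2 of the 33 genes (6.06%) held a peak, beside 14.5% of all coding genes. Both were among the 25 genes with cortex peaks, and over the 8939 coding genes with cortex peaks 32.6% had an N2A peak. The cortex list is 13.3 times as long as the N2A list, and the set held 1337 peaks against 2. By length, 1 of the 6 members over 500 kb had an N2A peak beside 18.5% of coding genes, 0 of 6 from 200 to 500 kb beside 23.1%, 0 of 12 from 50 to 200 kb beside 25.9%, and 1 of 9 shorter ones beside 11.4%. With 1 N2A sample and no read counts, it cannot be told apart whether these transcripts were unbound, scarce or absent there.

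The N2A peak of Pcdh1, a delta-1 protocadherin, lay at chr18:38185964-38186015 on the minus strand with a p of 0.00462, 50 nt before the gene end. The only cortex peak of that gene, at chr18:38186035-38186086, had a p of 2.00e-07 and lay 20 nt from it on the same strand, so the sites were neighbours without a shared base. The other N2A peak, at chr10:73225015-73225066 with a p of 0.00271, fell in the span of Pcdh15 but on the minus strand, opposite to the gene. No other gene span held it, and the nearest cortex peak on that strand was 215.6 kb away. On the gene's own strand, then, 1 of the 33 genes had an N2A peak. Neither peak overlapped a cortex peak, whereas 41.6% of all 7335 N2A peaks shared at least 1 nt with one on the same strand and 79.9% lay within 500 nt of one.

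Genes for the proteins that cadherins work with were counted in the same way. Their shares may be read beside the 40.8% of all coding genes with a cortex peak and 14.5% with an N2A peak, or the 69.1% and 25.9% of coding genes of 50 to 200 kb. These lists were chosen with earlier results of these data known, so a high share may come from the choice. Catenins, with a median span of 103.9 kb, had cortex peaks in 9 of 10 genes and N2A peaks in 3. Ctnnd1, encoding p120-catenin, which holds cadherins at the surface, had 21 cortex and 5 N2A peaks, and 2 of the 5 overlapped a cortex peak. Ctnnb1, encoding beta-catenin, the link from the cadherin tail to alpha-catenin, had 3 and 2. Its strongest peaks overlapped, at chr9:120960034-120960084 in cortex (p of 1.13e-69) and chr9:120960050-120960101 in N2A (p of 4.39e-20), at 0.423 and 0.406 kb before the gene end. Jup, encoding plakoglobin, had 1 peak in each list, and its cortex peak had a p of 7.62e-174. The N2A peak of Jup had a p of 0.0148 and lay 212 nt from the cortex peak, without overlap. The neural catenins Ctnna2 and Ctnnd2 had 125 and 122 cortex peaks and 0 in N2A.

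Counts in the alpha-catenin genes include sites of genes nested in them. In Ctnna3, which lies on the plus strand, 75 of 77 cortex peaks were on the minus strand, and 67 lay in the span of the nested synaptic adhesion gene Lrrtm3, whose strand is minus. All 8 peaks in Ctnna1 were in the span of the nested gene Lrrtm2. In Ctnna2, by contrast, 122 of 125 peaks were on the gene's own strand.

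Among 16 further junction and actin partners, with a median span of 95.4 kb, 16 had cortex peaks and 13 had N2A peaks. Magi2, a synaptic scaffold, had the most in cortex with 244, and none in N2A, followed by its relative Magi1 with 43 and 5 and by Afdn, encoding afadin of nectin junctions, with 41 and 2. Most genes listed for the WAVE complex, which drives branched actin, had N2A peaks as well, with 11 in Abi2, 4 in Wasf1, 3 each in Wasf3 and Nckap1, and 1 in Abi1. The cortex counts of those genes ran from 17 to 38, and Cyfip2, of the same complex, had 13 in cortex and 0 in N2A. The single N2A peak in Cyfip1 also lay in the neighbouring gene Nipa2, on the strand of 4 of the 17 Cyfip1 cortex peaks. N2A peaks of Abi2, Abi1, Magi1 and Vcl also touched the spans of Raph1, Gm52502, 4930511A08Rik and Ap3m1, respectively, and all lay on the strand of the cortex peaks of the named gene. Vcl, encoding vinculin, had 5 in each list, and its strongest sites overlapped within the last 2 kb. Iqgap1, a scaffold of the actin cortex, had 3 N2A peaks and 1 in cortex, and Nectin1, Nectin3 and Rap1a each had 1 in N2A. Among enzymes that cut cadherins or their precursors, Adam10, the sheddase of N-cadherin, had 31 cortex and 5 N2A peaks, and the proprotein convertase Furin had 4 and 2.

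Other families of neuronal adhesion genes were counted for comparison. The 6 neurexins and neuroligins held 1508 cortex peaks and 1 N2A peak, the latter giving 1 of 6 genes with an N2A peak. The 13 contactins and contactin-associated proteins held 766 and 3, with N2A peaks in 2 of 13 genes. Their median spans were 512.8 and 401.3 kb. Of coding genes over 500 kb 18.5% had an N2A peak, of those from 200 to 500 kb 23.1%, and of all coding genes 14.5%. With so few genes, no difference is read from these shares. The single N2A peak in Cntnap2 lay on the minus strand, opposite to the gene. Only Cntn3, with 2 N2A peaks, thus had any on its own strand among the contactins and contactin-associated proteins. Shares of cortex peaks within 5 kb of the gene end were 1.46% and 4.44% in these families. The clustered protocadherins, whose 57 gene spans overlap and so share peaks, held 110 different cortex peaks and 3 N2A peaks, the 3 falling in the spans of 35 of the 57 genes.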

How the data were processed

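The authors deposited 1 peak list per group, and both were used whole. Each gives a p-value per peak, made by the authors' peak calling per the file headers. The sources used here do not name the peak caller, its filters, any adjustment of p, or whether cortex reads were merged. Novoalign and hg19 are named in the submitters' processing notes, but chromosome names are those of mouse and peaks fall on the RefSeq genes of GRCm38.p6, the build used here. Coordinates are printed as deposited, and their counting base is not stated.

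A peak counted for every gene whose span it touched by at least 1 nt, on either strand. Distance to the gene end used each peak's own strand. Counting was tested on simulated data and run in Python 3.11.15 with pandas 2.3.3 and scipy 1.17.1. No test over genes was made. The genes and lists were chosen with earlier results of these data known, and the neurexin, contactin and clustered protocadherin lists after the files were seen. Full values are given for the 8 genes with most cortex peaks, the 8 with the lowest p and all with an N2A peak or none, and for partner genes with an N2A peak or among the 3 highest cortex counts. No genome was used, so sequences of the sites are not printed. Intervals cover counting error only. The count for the list of cadherin-cutting enzymes is not reported here.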

Additional observations from a re-analysis of the deposited data

How the results depend on the processing

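No paired analysis was possible because each group is 1 list and the N2A sample has no replicate. The number of genes with a cortex peak was 21 to 25 under the 5 alternatives tried. That with an N2A peak was 1 on the majority strand of the gene and 0 with at least 2 peaks required, and stayed at 2 under the other 3. The cortex share of 6.13% within 5 kb of the gene end became 3.81% with a window of 2 kb, 7.75% with peaks of p under 0.01, 29.3% with each gene weighted equally and 11.3% without Pcdh9. A window of 10 kb, the majority strand and, chosen after seeing the data, members over 100 kb moved it within its interval. The N2A share of 50%, 1 of 2 peaks, became 0% for members over 100 kb, and leaving out the gene with most peaks was not run because both genes held 1. Of the N2A peaks 1 had a cortex peak within 500 nt, against 0 that overlapped one. Depth is unknown, so absent peaks cannot be read as absent binding.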
